A study of Arabidopsis thaliana with 12 samples.

Results

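The minor antenna of photosystem II was followed through its 5 nuclear genes, LHCB4.1 (AT5G01530), LHCB4.2 (AT3G08940), LHCB4.3 (AT2G40100), LHCB5 (AT4G10340) and LHCB6 (AT1G15820). They were taken by locus number, with earlier results of these data known, and all 5 were among the 32592 loci of the files. Messenger RNA came from rosette leaves of 3-week-old Arabidopsis thaliana that had not bolted, raised in soil under long days (16 h light, 8 h dark, 22 and 20 °C). The plants were the Columbia ecotype (Col), the C24 ecotype, and F1 hybrids made in both directions: ColxC24, with Col as the mother, and C24xCol, with C24 as the mother. None carried a transgene or treatment according to the labels. Harvests fell at ZT0, ZT6 and ZT15, where ZT is zeitgeber time in hours, and each of the 12 combinations had 1 library, so no combination was replicated.

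The minor antenna proteins are single chlorophyll a/b-binding proteins of the thylakoid membrane. They sit between the photosystem II core and the trimers of the major antenna, pass excitation energy to the core, and take part in the release of excess energy as heat. LHCB4 is known as CP29, LHCB5 as CP26 and LHCB6 as CP24. CP24 helps to hold the outer trimers in the larger photosystem II supercomplexes. Arabidopsis has several genes for CP29, of which LHCB4.3 is the most divergent and has also been called LHCB8.

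Levels are in RPKM, reads scaled to the length of the gene model and to the mapped reads of the library, so that they can be set beside each other between genes of different length. They are values of single libraries. The libraries held an estimated 16.6 to 26.5 M reads. The lowest level of any of the 5 genes, LHCB4.3 in Col at ZT6, then rested on about 2445 reads, a counting error of 2.02%. The 3 mesophyll markers summed to 35237 to 58032 RPKM in each library, while the 2 root hair markers and the 3 seed markers each stayed below 1 RPKM. The 3 guard cell markers summed to 27.3 to 40.6 RPKM, and SUC2, of phloem companion cells, ran from 88.8 to 195 RPKM. Of 4 floral markers, 3 stayed below 1 RPKM and AG reached 1.32 RPKM. SAG12, a marker of senescent leaves, was listed at 0 in each library.

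The coding sequences of the 5 genes were compared in the TAIR10.1 annotation to see whether reads could be confused between them. LHCB4.1 and LHCB4.2 were 81.9% identical over 864 aligned coding bases. LHCB4.3 was 71.6% identical to LHCB4.1 and 72.8% to LHCB4.2, with a coding sequence of 831 bases against 873 and 864. Identity between LHCB5, LHCB6 and the LHCB4 genes lay between 60.5 and 64.9%. The longest run of identical coding bases between any 2 of the genes was 23, and 0 windows of 84 bases, the read length, occurred in the transcripts of 2 of them or more than once in the genome. In TAIR10.1 the end of LHCB4.2 overlaps AT3G08943, which was at 9.36 to 24.05 RPKM, and LHCB6 overlaps AT1G15810, at 7.10 to 24.4 RPKM, and a non-coding locus not analysed here. Reads in these overlaps cannot be told apart, since strand is not stated. The files list 2 gene models for LHCB4.2 and 1 for each of the other genes.

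Over the 12 libraries LHCB4.1 averaged 3677 RPKM, LHCB5 3569.5, LHCB6 2466, LHCB4.2 1065 and LHCB4.3 236, ranking 19, 22, 36, 107 and 505 among 32592 loci. LHCB4.3 was the lowest of the 5 in each library of ZT0 and ZT6, and the ranges of LHCB4.1 and LHCB5 overlapped.

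The 5 genes differed in their course over the day, and the 3 CP29 genes each followed a different one. LHCB4.1 varied least, LHCB4.2 dropped at ZT15, still within the 16 h of light, to a fraction of its ZT0 and ZT6 levels. LHCB4.3 was lowest when the others were highest. LHCB4.1, the CP29 gene with the highest levels, measured 2105 RPKM at ZT0 in Col and 2708 in C24, with 3051 in the ColxC24 hybrid and 3190.1 in C24xCol. At ZT6 it was at 3605, 5458, 6244 and 4707 RPKM in the same order, and at ZT15 at 2554, 3929, 3223 and 3356. Each genotype was highest at ZT6, and the ZT6 values lay above all of ZT0.

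LHCB4.2, the other gene for the standard CP29 protein, measured 1095 RPKM at ZT0 in Col and 1012 in C24, with 1214 in the ColxC24 hybrid and 1315 in C24xCol. It stood at 1459, 1790.1, 2171 and 2009 RPKM at ZT6, and at 193, 123, 187 and 212 RPKM at ZT15. Its ZT15 levels were 7.56 to 14.5 times lower than those of ZT6 and lay below each value of the other times. Model 1 of the gene held 43.3 to 44.8% of its RPKM in each library, a split that reads common to both models would also give.

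LHCB4.3, the divergent CP29 gene, ran the other way. At ZT0 its Col library stood at 101 RPKM and its C24 library at 298, with 342 in the ColxC24 hybrid and 241 in C24xCol. In the same order it was at 71.2, 199, 166 and 185 RPKM at ZT6, and at 171, 407, 345 and 301 RPKM at ZT15. Each of the 4 genotypes was lowest at ZT6 and highest at ZT15, although the values of the 3 times overlapped. Col was the lowest genotype at each time, as it also was in LHCB4.1 and LHCB6.

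LHCB5, which encodes CP26, measured 2521 RPKM at ZT0 in Col and 2726 in C24, with 3313 in the ColxC24 hybrid and 2964 in C24xCol. It reached 4749.6, 6654, 6972 and 5992 RPKM at ZT6 in the same order, and fell to 1754, 1185, 2189.8 and 1814 RPKM at ZT15. The 3 times did not overlap. All 4 libraries of ZT6 lay above those of ZT0 in LHCB4.1, LHCB4.2, LHCB5 and LHCB6, as in 8.43% of loci (19.3% lay below). All 4 of ZT15 lay below those of ZT6 in LHCB4.2, LHCB5 and LHCB6 (7.4% of loci, with 15.3% above), and below those of ZT0 in LHCB4.2 and LHCB5 (21.1% of loci, with 17.5% above). LHCB6, which encodes CP24, was at 894, 1568, 1644 and 1516 RPKM at ZT0, at 3093, 5586, 5773 and 4734 RPKM at ZT6, and at 948, 1474, 1128 and 1227 RPKM at ZT15, again for Col, C24, ColxC24 and C24xCol. Its ZT6 values lay above all others, while those of ZT0 and ZT15 overlapped.

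**Figure D1:**
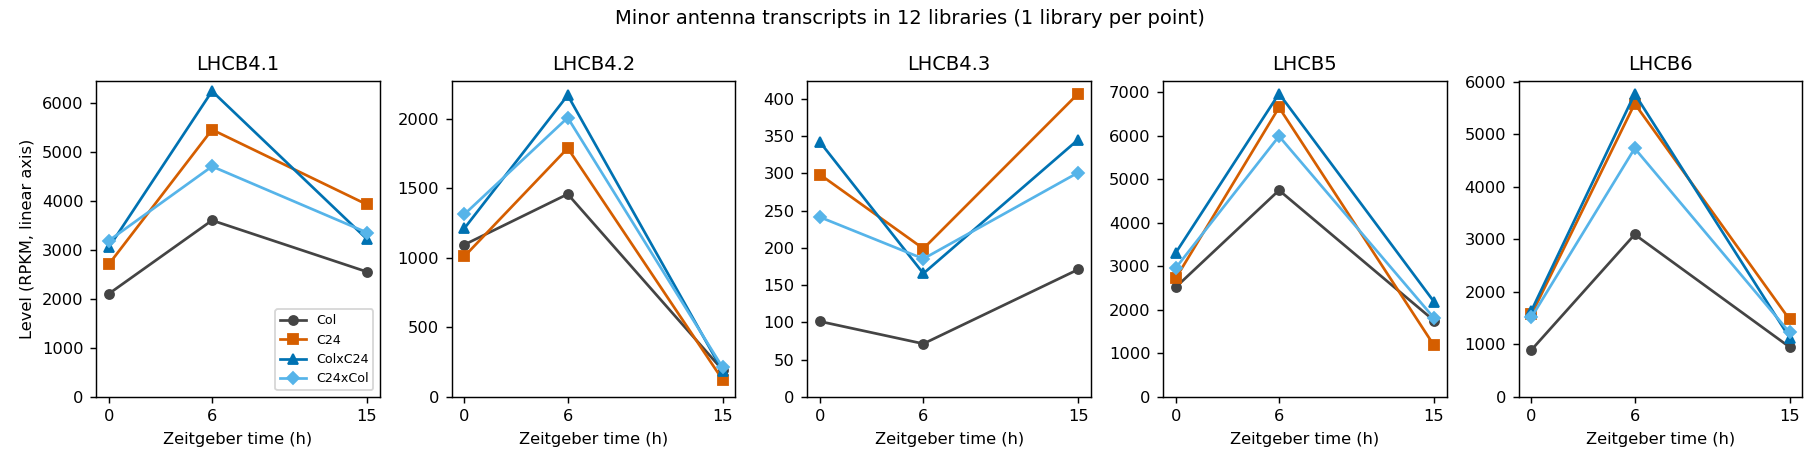
Level in RPKM (linear axis from 0) against zeitgeber time in hours for each minor antenna gene, with 1 library per point and 1 line per genotype. LHCB4.1, LHCB4.2, LHCB5 and LHCB6 are highest at ZT6 in each genotype, LHCB4.2 is at 123 to 212 RPKM at ZT15, and LHCB4.3 is lowest at ZT6.

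These time differences were tested with limma on log2(RPKM + 1) over all 17207 loci averaging 1 RPKM or more, with genotype as a covariate. All 5 genes passed this filter. The spread in this fit is the residual of genotype by time, which takes the place of replicates, so the p-values also carry any real interaction. From ZT0 to ZT6, 4 of the 5 genes rose and 1 fell, against 12.5% of all loci called higher and 26.8% called lower (39.3% in either direction). LHCB6 rose by 1.77 on the log2 scale (SE 0.12, adjusted p = 1.4e-05), LHCB5 by 1.07 (SE 0.15, adjusted p = 6.3e-04), LHCB4.1 by 0.85 (SE 0.12, adjusted p = 5.7e-04) and LHCB4.2 by 0.67 (SE 0.14, adjusted p = 0.0048). LHCB4.3 changed by -0.63 (SE 0.14, adjusted p = 0.0063). Each direction held in 4 of 4 genotypes. Fewer cells of a type and less RNA per cell cannot be told apart in whole leaves.

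From ZT6 to ZT15, 4 genes fell and LHCB4.3 rose, against 8.48% of all loci lower and 17.0% higher (25.5% in all). LHCB4.2 changed by -3.38 on the log2 scale (SE 0.14, adjusted p = 5.4e-07), LHCB6 by -1.98 (SE 0.12, adjusted p = 5.6e-06), LHCB5 by -1.83 (SE 0.15, adjusted p = 4.9e-05) and LHCB4.1 by -0.60 (SE 0.12, adjusted p = 0.0058). LHCB4.3 rose by 1.01 (SE 0.14, adjusted p = 9.6e-04). Both sets of differences share the ZT6 libraries. Both calls of LHCB4.1 were lost with quantile normalization (0.23, adjusted p = 0.12 for ZT6 minus ZT0 and -0.086, adjusted p = 0.61 for ZT15 minus ZT6), and the second also without a filter (adjusted p = 0.070) or without the ColxC24 libraries (-0.49, adjusted p = 0.055), within ranges of 3.4e-04 to 0.12 and 0.0038 to 0.61 over 24 alternatives each.

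Between ZT0 and ZT15, 2 genes were lower and 1 higher at ZT15, against 22.3% of loci lower and 20.3% higher (42.6% in all). LHCB4.2 changed by -2.71 (SE 0.14, adjusted p = 2.0e-06) and LHCB5 by -0.76 (SE 0.15, adjusted p = 0.0035). LHCB4.1 (0.24, SE 0.12, adjusted p = 0.12) and LHCB6 (-0.21, SE 0.12, adjusted p = 0.18) did not pass. LHCB4.3 was higher by 0.38 (SE 0.14, adjusted p = 0.048), a call lost in 17 of 24 alternatives (adjusted p 0.018 to 0.23). It was lost without any single library except ColxC24 at ZT0 and C24xCol at ZT6: the adjusted p was 0.15, 0.057 and 0.17 without Col at ZT0, ZT6 and ZT15, and 0.10, 0.056 and 0.10 without C24 at these times. It was 0.052 and 0.063 without ColxC24 at ZT6 and ZT15, and 0.13 and 0.061 without C24xCol at ZT0 and ZT15.

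The difference in course between the genes was tested on the ratio of each gene to LHCB4.1 in the same library, which does not depend on the scaling of libraries by a constant. These 12 tests, 4 ratios by 3 pairs of times, were added after the data had been seen. The mean log2 ratio of LHCB4.2 to LHCB4.1 was -1.24 at ZT0, -1.42 at ZT6 and -4.20 at ZT15. The ZT15 ratios were lower than those of ZT6 and of ZT0 without overlap (exact two-sided permutation test over 4 and 4 libraries, p = 0.0286 each, the smallest p this test can give, and 0.0381 adjusted over the 12 tests). This test treats the libraries as unmatched, although both times hold the same 4 genotypes. Permuted within genotype, 4 pairs cannot go below p = 0.125 (exact two-sided permutation test), so none of the 12 comparisons could pass when matched, and these calls rest on the unmatched test. Each of the 9 differences called without matching had the same direction in 4 of 4 genotypes. For LHCB4.3 the mean log2 ratio was -3.61, -5.09 and -3.47 at ZT0, ZT6 and ZT15, and ZT6 differed from both other times with the same exact permutation p. LHCB5 differed between ZT15 and each other time, and LHCB6 between all 3 pairs of times, again with the same p. The remaining 3 pairs, LHCB4.2 and LHCB5 from ZT0 to ZT6 and LHCB4.3 from ZT0 to ZT15, did not pass (exact permutation p = 0.257, 0.0571 and 0.714).

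The makeup of the CP29 transcripts differed between times. LHCB4.1 made up 63.8 to 67.4% of the summed LHCB4 RPKM at ZT0, 68.2 to 73.3% at ZT6 and 85.8 to 88.1% at ZT15. LHCB4.2 made up 25.2 to 33.2%, 24.04 to 29.1% and 2.76 to 6.61% at these times. At ZT0 LHCB4.3 held 3.06% in Col and 7.42% in C24, with 7.42% in the ColxC24 hybrid and 5.08% in C24xCol. At ZT6 its share was 1.39, 2.67, 1.93 and 2.68% in the same order, and at ZT15 it was 5.86, 9.13, 9.20 and 7.78%. At ZT15 the divergent gene was 3.31 times as high as LHCB4.2 in C24, 1.85 times in ColxC24 and 1.42 times in C24xCol, and 0.886 times as high in Col. How reads common to both models of LHCB4.2 were counted is not stated. With the higher model alone LHCB4.3 was 1.61 times as high as LHCB4.2 in Col at ZT15, a turned direction, and 5.95, 3.34 and 2.54 times in C24, ColxC24 and C24xCol. The share of LHCB4.2 was then 15.05 to 21.6% at ZT0 and ZT6 and 1.55 to 3.76% at ZT15.

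**Figure D2:**
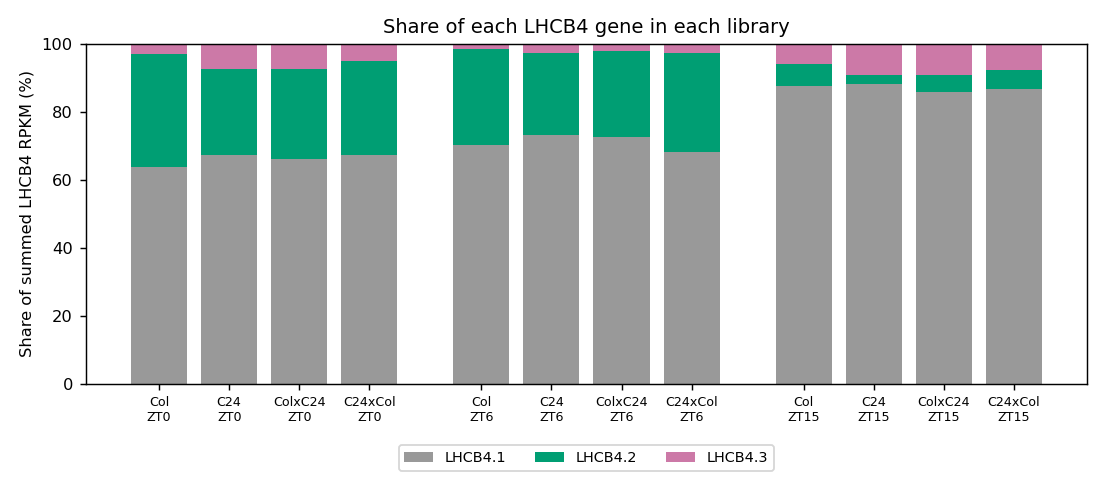
Share in percent of LHCB4.1, LHCB4.2 and LHCB4.3 in their summed RPKM, 1 stacked bar per library, grouped by time. LHCB4.2 holds 24.04 to 33.2% at ZT0 and ZT6 and 2.76 to 6.61% at ZT15, and LHCB4.3 holds its widest shares at ZT15.

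Across the 12 libraries, the profiles most like each gene were taken as the loci with the highest Pearson r of log2(RPKM + 1) among 8747 other loci averaging 10 RPKM or more. All points share their libraries and the 3 times, so r is a description. LHCB4.1 was closest to PSAE-1 and PSAL, subunits of photosystem I, and PSBP-1, a subunit of the oxygen-evolving complex (r = 0.954, 0.953 and 0.953). LHCB4.2 was closest to GUN5, a subunit of magnesium chelatase, and CRD1, an enzyme of the next steps to chlorophyll (r = 0.992 and 0.988), then AT3G01060 (r = 0.987). LHCB5 was closest to AT5G19940, LHCA4 and LHCB2.3 (r = 0.980, 0.974 and 0.971), and LHCB6 to AT1G08390, PSAO and CAB3 (r = 0.984, 0.982 and 0.973). AT1G08390 averaged 11.7 RPKM, against 2963 RPKM for PSAO (AT1G08380). Whether reads were shared between them was not tested. The nearest loci to LHCB4.3 were THM1, an m-type thioredoxin of the chloroplast, IAA9, an auxin response repressor, and AT1G80850 (r = 0.944, 0.935 and 0.932). Between the 5 genes themselves r ran from -0.50 (LHCB4.2 with LHCB4.3) to 0.90 (LHCB4.1 with LHCB6), and the 3 negative values of the 10 pairs were those of LHCB4.3 with LHCB4.2, LHCB5 and LHCB6.

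Most of the other antenna genes also rose and then fell. All 9 genes of LHCB1, LHCB2 and LHCB3 rose from ZT0 to ZT6 (median 2.97 on the log2 scale, against 0.85 for the minor antenna and -0.14 for all loci) and all 9 fell from ZT6 to ZT15 (median -5.25, against -1.83 and 0.12). LHCB2.3, of the major antenna, went from 125 to 340 RPKM at ZT0 over 1681 to 3065 at ZT6 to 21.7 to 60.1 at ZT15. The LHCB1 genes are close copies, and reads may be divided between them. Of the 6 genes of the photosystem I antenna, 4 rose to ZT6 and 1, Lhca5, fell, and 4 fell to ZT15. LHCA1 rose by 2.43 and then changed by -3.26, and LHCA4 by 2.27 and -3.48. Of 9 nuclear subunits of photosystem II 7 rose to ZT6 and 6 fell to ZT15, with medians of 0.42 and -0.40. Of all loci, 12.5% rose and 26.8% fell from ZT0 to ZT6, and 8.48% fell from ZT6 to ZT15.

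**Figure D3:**
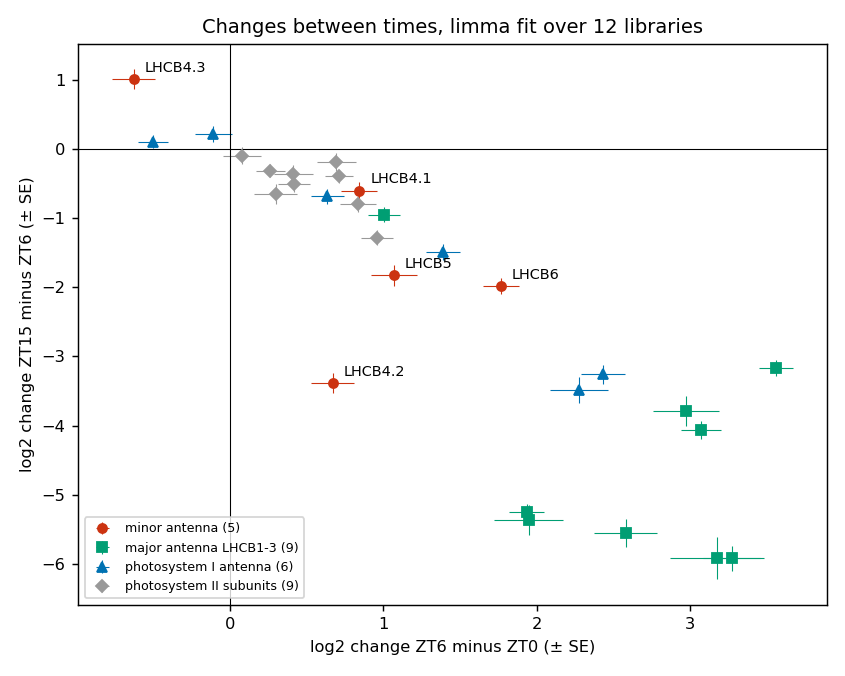
Log2 change from ZT6 to ZT15 (vertical) against log2 change from ZT0 to ZT6 (horizontal), each with its limma standard error, for the minor antenna genes, the major antenna, the photosystem I antenna and nuclear photosystem II subunits. Both axes share the ZT6 libraries; LHCB4.3 is in the upper left at -0.63 and 1.01, LHCB4.2 at 0.67 and -3.38, and the major antenna reaches the lowest vertical values.

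Genes that act on the antenna were divided. CH1, chlorophyllide a oxygenase, which makes the chlorophyll b that these proteins bind, changed by -0.072 (SE 0.15) from ZT0 to ZT6 and by -2.94 (SE 0.15, adjusted p = 2.3e-06) from ZT6 to ZT15. Of the 4 genes of chlorophyll b metabolism, 2 rose and 1 fell from ZT6 to ZT15. NYC1 and HCAR, which help to turn chlorophyll b back to chlorophyll a, rose from ZT6 to ZT15 by 1.82 (SE 0.17, adjusted p = 1.0e-04) and 1.86 (SE 0.11, adjusted p = 5.2e-06), while NOL, the other chlorophyll b reductase, did not pass (0.19, adjusted p = 0.32). Of the 3 regulators listed, GLK2, a transcription factor of antenna genes, changed by -1.81 (SE 0.11, adjusted p = 6.8e-06) in that interval, HY5, a light-signalling factor, rose by 0.73 (SE 0.15, adjusted p = 0.0074), and GLK1, named GPRI1 in the annotation, did not pass (-0.061, SE 0.19, adjusted p = 0.84). Among 7 genes of photoprotection and state transitions, 2 fell and 2 rose from ZT6 to ZT15, an interval in which 8.48% of all loci fell and 17.0% rose. ABA1, zeaxanthin epoxidase, changed by -2.70 (SE 0.16, adjusted p = 4.6e-06), while NPQ4, the PSBS protein of heat dissipation, did not pass (-0.21, SE 0.12, adjusted p = 0.22). Of 5 genes of antenna protein import and insertion, 1, ALB3, fell. Of 9 light-harvesting-like genes, 3 fell and 1 rose, beside the same 8.48% and 17.0% of all loci.

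The parents differed in 3 of the 5 genes. LHCB4.3, LHCB6 and LHCB4.1 were higher in C24 than in Col at 3 of 3 times, and LHCB4.2 and LHCB5 were not called. These 3 of 5 stood against 4.46% of all loci called higher and 9.12% called lower in C24, or 13.6% in all. C24 was above Col at all 3 times in 13.0% of loci and below in 31.7%. LHCB4.3 showed the widest difference, at 2.95, 2.79 and 2.38 times the Col level at ZT0, ZT6 and ZT15 (log2 change 1.42, SE 0.16, adjusted p = 3.8e-04). This call held in each of 23 alternatives (1.31 to 1.56, adjusted p 2.0e-04 to 0.016). LHCB6 was at 1.75, 1.81 and 1.55 times the Col level (log2 change 0.77, SE 0.14, adjusted p = 0.0066), and LHCB4.1 at 1.29, 1.51 and 1.54 times (log2 change 0.53, SE 0.14, adjusted p = 0.032).

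LHCB4.2 was at 0.924, 1.23 and 0.638 times Col in the C24 libraries (log2 change -0.16, SE 0.16, adjusted p = 0.56), and LHCB5 at 1.08, 1.40 and 0.676 times (log2 change 0.011, SE 0.17, adjusted p = 0.97). Both genes had C24 above Col at ZT6 and below Col at ZT15. The share of LHCB4.3 in the CP29 transcripts was 6.41% ± 3.35 in C24 and 3.44% ± 2.26 in Col (SD, n = 3 times each; exact two-sided permutation test, p = 0.30, where 3 against 3 cannot go below 0.10). That test ignores time. The share was higher in C24 at 3 of 3 times, and permuted within time the exact p was 0.25, the smallest that 3 pairs allow.

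The LHCB4.1 call rested on narrow margins. It was lost in 12 of 23 alternatives (adjusted p 0.026 to 0.30), among them no filter (0.17), median-of-ratios scaling (0.056) and quantile normalization (0.22 on the log2 scale, adjusted p = 0.30). Without single libraries it was lost for Col at ZT0, ZT6 and ZT15 (adjusted p = 0.082, 0.11 and 0.082), C24 at ZT6 and ZT15 (0.066 and 0.13) and ColxC24 at ZT0 (0.055). The LHCB6 call was lost without the libraries of ZT0 (0.74, adjusted p = 0.093; 0.0039 to 0.093 over the alternatives). The median of all loci for C24 minus Col was -0.12, and -0.018 with median-of-ratios scaling, where LHCB4.3, LHCB6 and LHCB4.1 were at 1.54, 0.89 and 0.65.

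In the related lists, beside 13.6% of all loci, the counts called between the parents ranged from 0 to 3. Of the 9 major antenna genes 2 were higher and 1 lower in C24: CAB3, one of the LHCB1 copies, by 1.61 (SE 0.13, adjusted p = 4.1e-05), CAB1 by 0.50 (SE 0.12, adjusted p = 0.026), and LHCB2.1 at -0.46 (SE 0.13, adjusted p = 0.049). The photosystem I antenna and the photoprotection list had 0 called of 6 and 7 with limma. The photosystem II subunits had 1 of 9, PSBP-1, at 0.42 (SE 0.11, adjusted p = 0.029). CAO, of the import and insertion list, was higher in C24 by 0.57 (SE 0.16, adjusted p = 0.049). Lower in C24 were NOL at -0.56 (SE 0.15, adjusted p = 0.041) and ELIP1, of the light-harvesting-like list, at -2.16 (SE 0.51, adjusted p = 0.024). The antenna regulators had 0 called. The median log2 difference was 0.59 in the major antenna, 0.53 in the minor antenna and -0.12 over all loci. It was 0.32 in the photosystem II subunits and 0.11 in the photosystem I antenna, and -0.30 to 0.011 in the other lists.

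Against Col, the hybrids were higher in the same 3 genes, and against C24 in 0. LHCB4.3 was higher in the hybrids than in Col by 1.23 on the log2 scale (SE 0.14, adjusted p = 0.0013), LHCB6 by 0.63 (SE 0.12, adjusted p = 0.017) and LHCB4.1 by 0.51 (SE 0.12, adjusted p = 0.033), against 1.65% of all loci higher and 5.64% lower (7.29% in all). LHCB4.2 (0.26, SE 0.14, adjusted p = 0.29) and LHCB5 (0.31, SE 0.15, adjusted p = 0.23) did not pass. These differences and those of C24 minus Col share the Col libraries. Of the 9 major antenna genes 5 were also higher in the hybrids than in Col. The median of all 9 was 0.98, against 0.51 for the minor antenna and -0.12 for all loci. The photosystem I antenna had 1 of 6 higher and the photosystem II subunits 1 of 9, with medians of 0.25 and 0.36. The other lists had 0 called.

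Against C24 the fitted differences were -0.021 (SE 0.12) for LHCB4.1, 0.41 (SE 0.14) for LHCB4.2, -0.19 (SE 0.14) for LHCB4.3, 0.30 (SE 0.15) for LHCB5 and -0.14 (SE 0.12) for LHCB6, with adjusted p from 0.24 to 0.97, while 1.56% of loci were called higher and 0.575% lower (2.14% in all). LHCB4.2, 1 of the 5, had an unadjusted limma p under 0.05, as had 13.1% of all loci.

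The count against Col depended on the alternative. LHCB4.3 was called in 22 of 23, with a loss without the ZT0 libraries (1.10, adjusted p = 0.052; range 6.9e-04 to 0.052). LHCB6 was lost in 7 (adjusted p 0.012 to 0.19), among single libraries without Col at ZT0 (0.078) or ZT6 (0.089). LHCB4.1 was lost in 13 (adjusted p 0.028 to 0.25), among single libraries without Col at ZT0, ZT6 or ZT15 (0.097, 0.14 and 0.11), ColxC24 at ZT0 or ZT6 (0.069 and 0.075) and C24xCol at ZT0 or ZT15 (0.083 and 0.058).

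**Figure D4:**
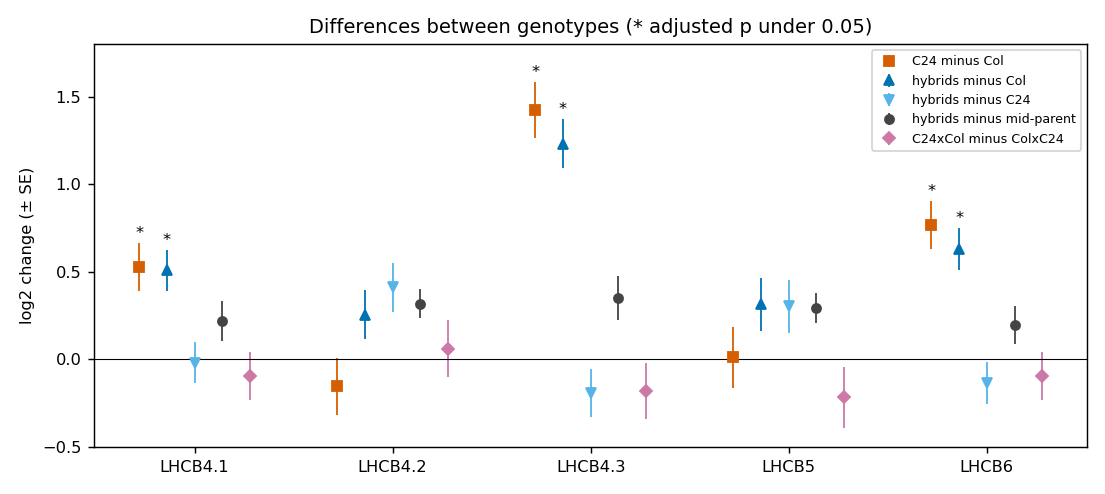
Log2 change with its limma standard error for each minor antenna gene in 5 comparisons of genotypes, with an asterisk where the adjusted p was under 0.05. LHCB4.1, LHCB4.3 and LHCB6 carry asterisks for C24 minus Col and hybrids minus Col, at 0.51 to 1.42, and no gene carries one in the other 3 comparisons.

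The hybrids were also set against the mid-parent, the mean RPKM of Col and C24 at the same time. Single hybrid values lay at 0.932 to 1.71 times the mid-parent, with a median of 1.23, and 28 of 30 were above it. The matching share of single values over all loci was not counted. The exceptions were ColxC24 at ZT15, in LHCB4.1 (0.994 times) and LHCB6 (0.932 times). In LHCB4.2, LHCB4.3 and LHCB5 both hybrids were above the mid-parent at each time, as in 1.74% of all loci. In the fit the differences were 0.35 (SE 0.13) for LHCB4.3, 0.32 (SE 0.084) for LHCB4.2, 0.29 (SE 0.084) for LHCB5, 0.22 (SE 0.11) for LHCB4.1 and 0.20 (SE 0.11) for LHCB6. With limma 0 of the 5 passed (adjusted p 0.24 to 0.53), beside 0.0% of all loci called above and 0.0465% called below the mid-parent. LHCB4.2, LHCB5 and LHCB4.3, 3 of the 5, had an unadjusted limma p under 0.05, as had 12.8% of all loci. All 5 differences were positive in each of 26 alternatives, and 0 were called. The median of all loci was -0.089, and that of the 5 genes was 0.29. The major antenna, photosystem I antenna and photosystem II subunits had medians of 0.39, 0.22 and 0.20, each with 0 called. Medians of the other lists ran from -0.080 to 0.12.

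Relative to the parental range, 16 of 30 hybrid values were above both parents, 14 between them and 0 below both. The values of a time share their parental libraries, and single values were not counted over all loci, so these counts are descriptions. At ZT0 the hybrids were above both parents in 8 of 10 values, at ZT6 in 5 and at ZT15 in 3. Both hybrids stood above both parents in LHCB4.1, LHCB4.2 and LHCB5 at ZT0, in LHCB4.2 at ZT6 and in LHCB5 at ZT15, as did 6.38, 5.7 and 11.3% of all loci at these times, while 24.5, 19.0 and 12.9% had both hybrids below both parents. LHCB4.2 and LHCB5, whose parents were not called different, had 5 of 6 hybrid values above both parents each, and LHCB4.3, LHCB6 and LHCB4.1 had 1, 2 and 3 of 6. These counts depend on the distance between the parents, since a narrow parental range is more easily exceeded. Above the mid-parent, LHCB4.2, LHCB4.3 and LHCB5 had 6 of 6 values each, and LHCB4.1 and LHCB6 had 5 of 6. Relative to the mid-parent, the highest of the 30 hybrid values was LHCB4.3 in ColxC24 at ZT0, at 342 RPKM against a mid-parent of 199.7 and 298 in C24. In LHCB5 at ZT15, ColxC24 was at 2189.8 and C24xCol at 1814 RPKM against a mid-parent of 1469. These single-time positions rest on 1 library each and were not tested.

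**Figure D5:**
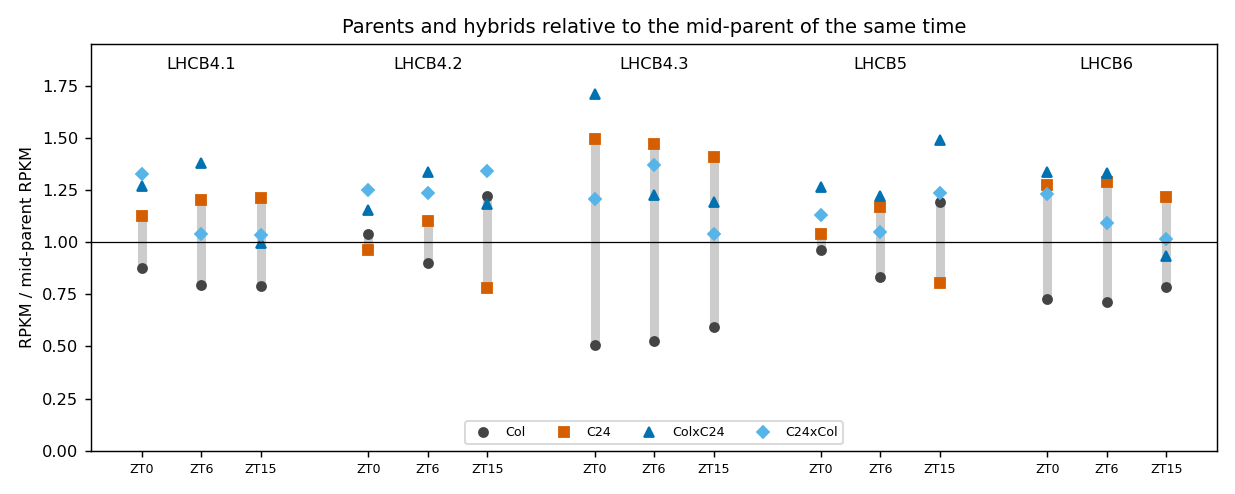
RPKM divided by the mid-parent RPKM of the same time for Col, C24 and both hybrids, 1 library per point, with the grey bar spanning the parents. Hybrid points lie between 0.932 and 1.71, 28 of 30 above the line at 1, and none lies below the grey bar.

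A comparison of C24xCol with ColxC24 addresses which ecotype was the mother. LHCB5 was lower in C24xCol than in ColxC24 at 3 of 3 times, at 0.895, 0.859 and 0.829 times its level, with a fitted log2 difference of -0.22 (SE 0.17) that did not pass (adjusted p = 0.75). The other genes changed sides between times, with fitted differences of -0.18 (SE 0.16) for LHCB4.3, -0.095 (SE 0.14) for LHCB4.1, -0.094 (SE 0.14) for LHCB6 and 0.061 (SE 0.16) for LHCB4.2. With limma 0 of the 5 were called (adjusted p 0.75 to 0.92), as were 0.0% of all loci, and 0 had an unadjusted p under 0.05, against 4.48% of all loci. The median of all loci was 0.081. At ZT6 ColxC24 was above C24xCol in LHCB4.1 (6244 against 4707 RPKM), LHCB4.2 (2171 against 2009), LHCB5 (6972 against 5992) and LHCB6 (5773 against 4734). LHCB4.3 was at 166 against 185 RPKM. At ZT0 and ZT15 C24xCol was above ColxC24 in LHCB4.1 and LHCB4.2, and at ZT15 also in LHCB6. These single-time positions rest on 1 library each and were not tested.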

How the data were processed

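Libraries were made from rosette leaf RNA with an Illumina mRNA-seq kit and read at 84 bp, per the labels' protocols. The deposited values are RPKM, computed by the authors for each of 38710 gene models, per the file headers. The genome build was TAIR9, per the submitters' processing notes. An aligner, a counter or a rule for multiply mapping reads is not given in the sources used here. Loss of C24 reads to differences from the build was not tested.

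Gene models were summed per locus. The read steps of low values in loci with 1 model gave the depth: the depth at which most values lay within 1% of 1 read, at which 35.1 to 40.2% of values under 3.5 reads were whole within 1%. Transcript lengths, names and sequence comparisons came from TAIR10.1, and no coordinates are given. RPKM are not counts, so limma 3.58.1 (R 4.3.3) was used on log2(RPKM + 1), with a mean-variance trend and Benjamini-Hochberg adjustment over all loci tested at a threshold of 0.05. Changes on this scale understate those of low genes. Genotypes and times were fitted additively (6 residual degrees of freedom), and the mid-parent in 9 columns with time (4 residual degrees of freedom). The fits for C24 minus Col and ZT15 minus ZT6 were tested on simulated data, with 100 changed loci per size of change. Of log2 changes of 1, 75% and 81% were recovered, and of log2 changes of 2, 94% and 95%. Of unchanged loci, 0.059% and 0.076% were called. Each simulated locus otherwise had 1 mean with independent normal noise, and few of the 17207 loci were changed. The fits of the real data called 13.6% and 25.5% of loci, so the simulated rates need not hold there. Smaller changes and the mid-parent fit were not simulated. Ratios to LHCB4.1 and the LHCB4.3 share were tested by exact permutation of libraries, and, added after the data had been seen, within genotype or time. Nothing says that libraries came from separate plants or cultures.

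The genes, the lists and the tests were chosen with earlier results of these data known. The text names the 5 genes, the 3 loci most like each, and up to 4 called loci per list and comparison, and describes a part of these. GPRI1, NPQ4 and NOL from ZT6 to ZT15, and CH1 from ZT0 to ZT6, are named although they were not called there. LHCB2.3 is named for its levels. Each of these was chosen after its values were seen. Alternatives covered the pseudocount, the filter, the scaling, the trend, the gene models, the mid-parent and the libraries left out.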

Additional observations from a re-analysis of the deposited data

Results flagged for a closer look

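The difference between the parents changed direction between times in LHCB4.2 and LHCB5. In LHCB4.2, C24 minus Col was -0.11, 0.29 and -0.65 on the log2 scale at ZT0, ZT6 and ZT15, a span of 0.94. In LHCB5 it was 0.11, 0.49 and -0.57, a span of 1.05. Each value rests on 1 library, and the difference between times was not tested.

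The reciprocal hybrids likewise changed order between times in 4 genes. The span of the log2 difference between C24xCol and ColxC24 was 0.47 in LHCB4.1, 0.29 in LHCB4.2, 0.66 in LHCB4.3 and 0.41 in LHCB6, and was not tested.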

How the results depend on the processing

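LHCB4.2, LHCB4.3, LHCB5 and LHCB6 kept their calls from ZT0 to ZT6 and from ZT6 to ZT15 in 24 of 24 alternatives, and LHCB4.3 its call for C24 minus Col in 23 of 23. The labels give no replicate numbers, so libraries could not be paired by replicate. They match by time and genotype, which enter the limma fits as terms, and the permutation tests were repeated within them. Of 5 genes, 3 were called for C24 minus Col, and 1 without the ZT0 libraries. For hybrids minus Col 3 were called, and 1 without a filter, with quantile normalization, or without the ZT6 or ZT15 libraries. Without the ZT0 libraries 0 were called. The share of all loci called in each alternative was not counted, and leaving out libraries also leaves fewer residual degrees of freedom. Leaving out 1 library at a time gave 2 to 3 called for C24 minus Col, 1 to 3 for hybrids minus Col, 2 to 3 for ZT15 minus ZT0, 5 for each of the other time comparisons and 0 for the rest. The share of LHCB4.3 differed between C24 and Col by 2.97 percentage points, and by 1.61 to 4.84 with 1 library left out.

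Signs changed only in differences that were not called, and the cause was not tested. LHCB5 for C24 minus Col was at -0.23 with quantile normalization, -0.040 without ZT0, -0.23 without ZT6 and -0.18 to 0.26 with 1 library out. LHCB4.2 was at 0.090 without ZT15 and -0.32 to 0.020 with 1 library out. LHCB4.1 for hybrids minus C24 was at 0.019 with quantile normalization, 0.097 without ZT15 and -0.12 to 0.074 with 1 library out. Between reciprocal hybrids, LHCB4.2 was at -0.032 with median-of-ratios scaling, and without ZT6 LHCB4.1 was at 0.061 and LHCB6 at 0.0020; LHCB4.1 was at -0.21 to 0.025 with 1 library out. LHCB6 for ZT15 minus ZT0 was called with quantile normalization (-0.35, adjusted p = 0.041). With 1 library per combination the full interaction of genotype and time leaves no residual, and narrower interactions were not tested.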
